A study of Mus musculus with 5 samples.

Results

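The fibroblast growth factor (FGF) genes described here are the ligands Fgf4, Fgf5, Fgf8, Fgf15 and Fgf17, the intracellular family member Fgf13, and the receptors Fgfr1 and Fgfr2. They were chosen by name, and every transcript that the GENCODE M21 annotation gives them was taken from a deposited table of transcript abundances. They are 8 of 55147 gene symbols and 72 of 141524 matched transcripts. The table comes from RNA sequencing of E14Tg2a mouse embryonic stem (ES) cells, a line grown here on gelatin in GMEM with fetal calf serum and LIF, the cytokine that keeps ES cells undifferentiated. The WT group holds 3 samples of the parent cells. The C3G null group holds 2 samples of cells in which CRISPR knock-in replaced exons 2 to 4 of C3G (Rapgef1, an activator of the small GTPase Rap1) with a puromycin cassette under the EF1α promoter. Colonies that had survived puromycin were picked as clones, and the labels do not say which clone each C3G null sample is, so clone and genotype cannot be told apart. The study describes the samples of each group as independent. The labels do not say whether that means separate cultures, and p-values measure only the spread between these samples.

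FGF ligands bind receptor tyrosine kinases together with heparan sulfate, and the activated receptor recruits the docking protein FRS2, GRB2 and SOS to drive the Ras-ERK cascade. In mouse ES cells FGF4 is the main autocrine ligand. ERK activity downstream of it prepares the cells to leave naive pluripotency, and in the blastocyst the same ligand acts through FGFR1 and FGFR2 in the choice between epiblast and primitive endoderm. Receptors and several ligands are made as splice forms that differ in which partners they bind, so the amount of each form matters as well as the sum.

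Some of the stretches that separate the splice forms are shown because transcript estimates rest on them. They were read from the GENCODE M21 transcripts on GRCm38, 5′ to 3′, capitals mark the alternative part and lower-case letters are 20 nt of the neighbouring exons in the transcript. Fgf17 and Fgf8 are near relatives, and each uses a pair of 3′ splice sites 33 nt apart. The longer forms add 11 codons ahead of the FGF core and are known from protein work on FGF8 to bind receptors more tightly. Fgf8 can also hold an additional 87-nt exon, and form b has the 11 codons without that exon. The Fgf8 stretch lies at chr19:45741647-45741679 on the minus strand.
Fgf8 form b: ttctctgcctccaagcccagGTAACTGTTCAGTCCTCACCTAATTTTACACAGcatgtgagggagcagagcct

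In the receptors, exons IIIb and IIIc are alternative parts of the ligand-binding Ig domain nearest the membrane. IIIb forms are typical of epithelia and IIIc forms of mesenchyme, and FGF4, FGF8 and FGF17 act mainly through IIIc forms. The Fgfr2 exon IIIb (148 nt) lies at chr7:130199758-130199905 on the minus strand.
Fgfr2 exon IIIb: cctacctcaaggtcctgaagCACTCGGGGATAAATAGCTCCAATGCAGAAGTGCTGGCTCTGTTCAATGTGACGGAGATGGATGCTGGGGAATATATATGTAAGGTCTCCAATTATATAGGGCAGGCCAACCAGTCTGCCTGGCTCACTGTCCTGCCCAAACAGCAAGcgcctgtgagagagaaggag

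A pair of 5′ splice sites 6 nt apart adds or removes 2 codons in each receptor. In Fgfr1 the 6 nt lie in the extracellular part (chr8:25557815-25557820, plus strand), and in Fgfr2 in the juxtamembrane segment to which FRS2 binds (chr7:130196172-130196177, minus strand).
Fgfr1 6 nt: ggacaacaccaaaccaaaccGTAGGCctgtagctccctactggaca
Fgfr2 6 nt: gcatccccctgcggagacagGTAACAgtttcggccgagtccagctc

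Levels are given as TPM, a unit per transcript length and per library, so that levels can be compared between genes. Each value is given in the deposited form and in a scaled form, for which a sample was divided by its median-of-ratios factor (the median, over genes, of a gene's TPM over its geometric mean in the 5 samples). The scaling matters in these samples. Protein-coding genes held 28.8 to 31.8% of the TPM in WT and 18.6 and 26.0% in C3G null samples, the rest being mostly small non-coding RNA, and the scaling factors were 1.10 to 1.34 in WT and 0.619 and 0.906 in C3G null. Over the 12518 genes tested, the median log2 fold change stood at -0.55 as deposited and 0.01 after scaling. Scaled values are therefore relative to the typical gene, and fewer cells of a type and less RNA per cell cannot be told apart in such bulk samples. Rapgef1 had 9.64 to 11.6 TPM in WT and 3.92 and 5.55 TPM in C3G null (scaled log2 fold change -0.41, SE 0.059, limma adjusted p = 0.00444), and truncated transcripts with its later exons are known to remain in these cells. The pluripotency genes Pou5f1 (230 to 400 TPM over the 5 samples), Sox2, Nanog, Zfp42, Esrrb and Tfcp2l1 did not pass the test, while of the same list of 8 Klf4 was lower (scaled log2 fold change -0.51, adjusted p = 0.0348) and Dppa5a higher (0.71, adjusted p = 0.0307, though 0.01 as deposited). Of the markers of other cell types, the 6 listed for primitive endoderm summed to 3.66 to 3.79 scaled TPM in WT and 6.66 and 9.17 in C3G null, those for mesoderm to 5.57 to 6.78 against 2.81 and 3.98, for fibroblasts to 3.71 to 4.43 against 1.66 and 1.71, and for trophoblast to 4.38 to 4.61 against 0.607 and 0.986. As deposited, the primitive endoderm sums overlapped, at 4.09 to 5.06 TPM in WT and 4.12 and 8.31 TPM in C3G null. The mesoderm, fibroblast and trophoblast sums were lower in C3G null as deposited too. No marker of these lists was at 0 in every sample, and the part of such cells in the results below was not tested.

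After scaling, Fgf4 and Fgf15 were higher in C3G null cells, and Fgf8, Fgf17, Fgf13 and Fgfr1 were lower. Fgf5 and Fgfr2 did not pass the test. The 2 higher genes stand against 14.1% of all tested genes called higher, and the 4 lower against 16.6% called lower. With TPM as deposited only Fgf15 was called higher, against 1.45% of all genes, and 5 genes were called lower (the same 4 and Fgfr2), against 56.8%. The calls made on both scales were Fgf15 upward and Fgf8, Fgf17, Fgf13 and Fgfr1 downward. Fgf8 and Fgf13 passed the filter through WT samples alone, so their lower calls carry no weight in these counts. Scaled C3G null values lay above all WT values for 3 of the 8 genes, against 29.5% of all genes, and below them for 4, against 29.3%. As deposited they lay above for 1, against 1.49%, and below for 5, against 75.7%. The median log2 fold change of the 8 genes was -0.20 scaled and -0.61 as deposited, on log2(TPM + 1), a scale that understates the change of low genes.

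**Figure D1:**
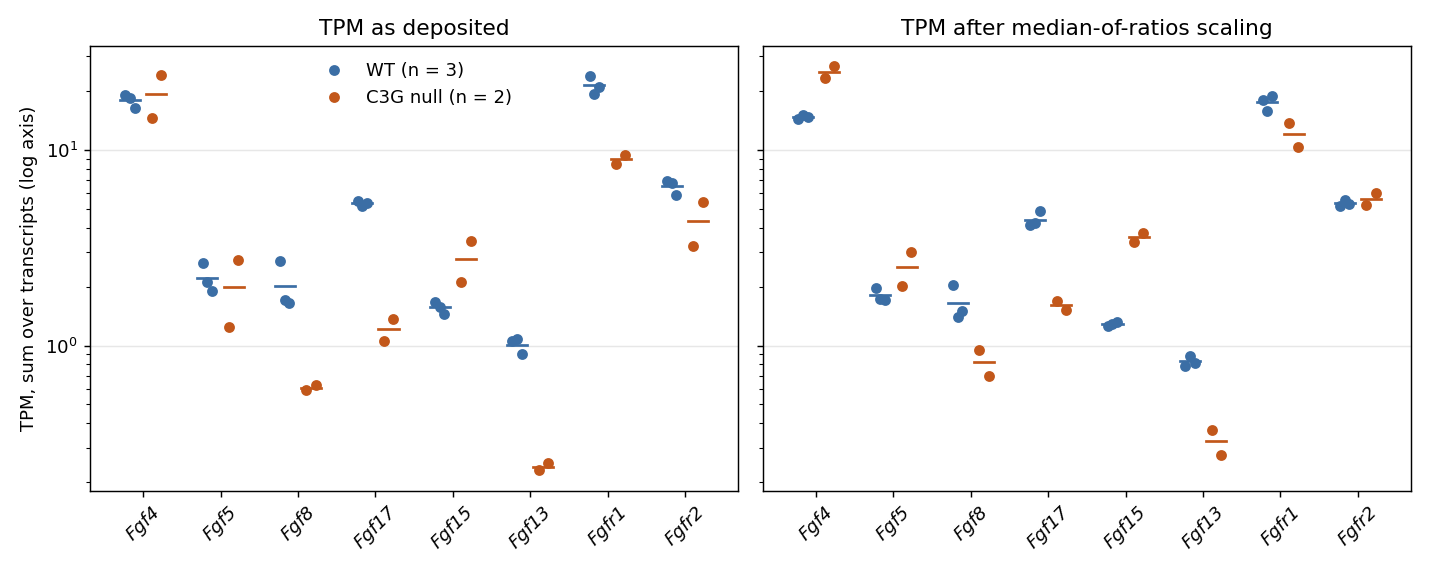
TPM of each gene, summed over its transcripts, in every sample (log axis), deposited values on the left and median-of-ratios scaled values on the right. Points are samples (3 WT, 2 C3G null) and short lines are group means. Scaling parts the groups for Fgf4, with WT between 14.3 and 15.1 and C3G null at 23.4 and 26.7, and brings Fgfr2 together.

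By level, Fgfr1 (19.3 to 23.9 TPM as deposited) and Fgf4 (16.3 to 19.1) stood highest in WT cells, followed by Fgfr2 (5.85 to 6.92) and Fgf17 (5.17 to 5.50). Fgf5, Fgf8 and Fgf15 lay together between 1.45 and 2.71 TPM, with ranges that overlap from neighbour to neighbour, and Fgf13 was lowest at 0.90 to 1.08. In C3G null cells the order of these gene sums was different. Fgf4 (14.5 and 24.2 TPM) stood above Fgfr1 (8.48 and 9.40), and Fgf15 (2.10 and 3.41) above Fgf17 (1.05 and 1.37). None of the other 18 Fgf and Fgfr genes passed the filter of 1 TPM in 2 samples. Of these, Fgf18 alone reached 1 TPM in any sample, and the next highest value was 0.69 TPM.

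Fgf4 (chr7:144847367-144865243, plus strand), the autocrine ligand of ES cells, measured 19.1, 18.4 and 16.3 TPM in WT and 14.5 and 24.2 TPM in C3G null as deposited. These ranges overlap, with the C3G null samples at the lowest and the highest value (log2 fold change 0.06, SE 0.26, limma adjusted p = 0.825). Scaled, it measured 14.3, 15.1 and 14.8 in WT and 23.4 and 26.7 in C3G null, a gap far wider than the spread within either group. The ratio of scaled means was 1.70 (log2 fold change 0.73, SE 0.078, adjusted p = 0.00168). All of it came from the 3-exon transcript Fgf4-201, and Fgf4-202 was at 0 in every sample. The statement that Fgf4 was higher therefore holds relative to the typical gene, and not for TPM as deposited. Over the 5 samples, the scaled profiles nearest to that of Fgf4 among 6872 genes of at least 5 TPM included those of Sqle and Lamtor2 (root mean square difference 0.025 and 0.029 on the log2 scale). Sqle, for example, went from 15.7 to 15.9 scaled TPM in WT to 25.3 and 28.7 in C3G null.

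Fgf15 (chr7:144896531-144900953, plus strand), the mouse counterpart of human FGF19 and an endocrine ligand in the adult intestine, lies 31.3 kb downstream of Fgf4. It measured 1.67, 1.58 and 1.45 TPM in WT and 2.10 and 3.41 TPM in C3G null as deposited, without overlap. Scaled, the values were 1.25, 1.30 and 1.31 against 3.39 and 3.76, a ratio of means of 2.78. The log2 fold change was 1.001 (SE 0.072, limma adjusted p = 0.000463) scaled and 0.53 (adjusted p = 0.0204) as deposited. Its coding transcript Fgf15-201 carried 89.8 to 93.8% of the gene's TPM in WT and 90.0 and 94.7% in C3G null, and the antisense genes that overlap it reached at most 0.15 TPM. The FGF15 co-receptor β-Klotho (Klb) stayed low, at 0.09 to 0.17 TPM in WT and 0.38 and 0.40 TPM in C3G null, and was below the filter. Fgf4 and Fgf15 share their neighbours. Of the 8 tested genes that start within 1 Mb of Fgf4, Fgf15 was the only 1 called higher and none was called lower, and the median log2 fold change of the 8 was -0.14. Ccnd1, the cyclin D1 gene, had a scaled log2 fold change of -0.19 (adjusted p = 0.154). Its lowest annotated coordinate lies 33.4 kb from that of Fgf15.

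Fgf17 (chr14:70636203-70642268, minus strand), a ligand of the FGF8 subfamily, showed the greatest decrease of the 8. It measured 5.50, 5.17 and 5.34 TPM in WT and 1.05 and 1.37 TPM in C3G null. Scaled, the values were 4.12, 4.24 and 4.84 against 1.70 and 1.51, so that WT was 2.74 times C3G null. The log2 fold change was -1.05 (SE 0.084, limma adjusted p = 0.000614) scaled and -1.52 (adjusted p = 1.94e-10) as deposited, and it kept its call under every alternative run. All 20 tested genes that start within 1 Mb of Fgf17 were lower in C3G null cells, with log2 fold changes from -1.91 to -0.93 and a median of -1.25. Fgf17 lay inside the range of its neighbours, among them Bmp1 (-1.91), Dmtn (-1.46), Xpo7 (-1.04) and Dok2 (-1.76). The part of its position in the decrease was not tested. For Fgf8, 4 of 26 were higher and 7 lower, for Fgfr1 3 of 19 were higher and 2 lower, and for Fgfr2 2 of 6 were higher and 2 lower. Fgf5 had 2 tested neighbours and Fgf13 had 1, and all of these were higher.

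**Figure D2:**
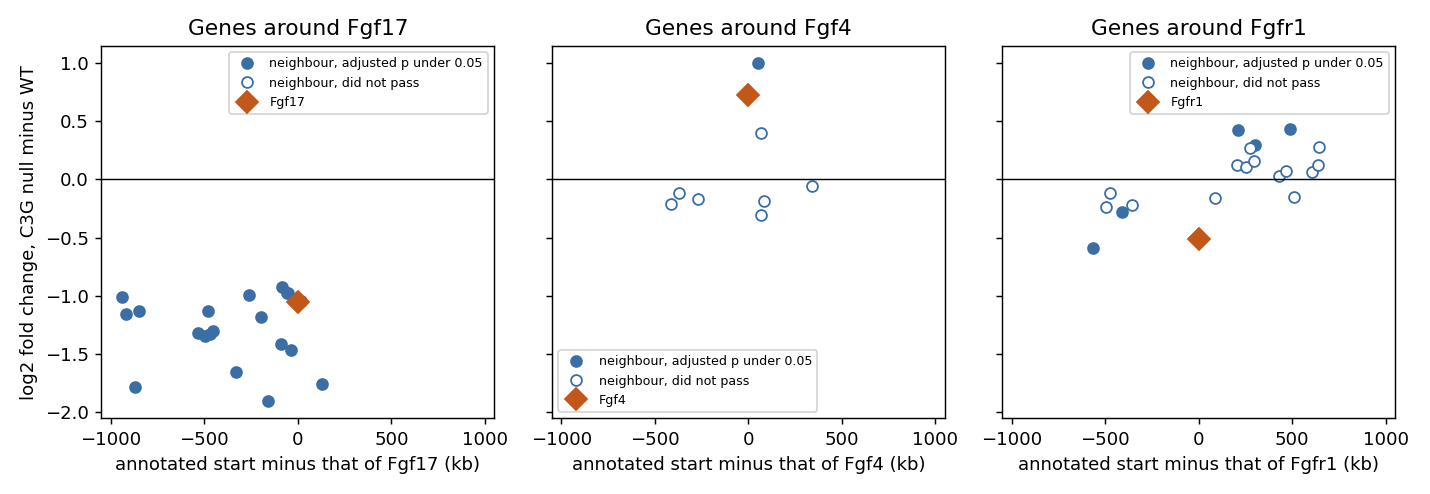
Scaled log2 fold change (C3G null minus WT) of each tested gene within 1 Mb of Fgf17, Fgf4 and Fgfr1, against the distance between annotated starts in kb. Diamonds are the FGF genes, filled circles are neighbours with adjusted p under 0.05 and open circles those that did not pass. All 20 neighbours of Fgf17 lie between -1.91 and -0.93, while Fgf15 is the only neighbour of Fgf4 that passed.

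Fgf8 (chr19:45736798-45742915, minus strand), which acts in gastrulation and mesoderm migration, measured 2.71, 1.70 and 1.65 TPM in WT and 0.59 and 0.63 TPM in C3G null. Scaled, the values were 2.03, 1.39 and 1.49 against 0.954 and 0.695, again without overlap, and WT was 1.99 times C3G null. The log2 fold change was -0.53 (SE 0.13, limma adjusted p = 0.0264) scaled and -0.89 (adjusted p = 2.15e-05) as deposited. The gene passed the filter through its WT samples alone. The scaled call was lost without either C3G null sample (adjusted p = 0.0555 without C3G null 1 and 0.129 without C3G null 2) and without a filter (0.0782). Beside it, the mesoderm gene T had 3.99 to 5.67 TPM in WT and 0.56 and 1.32 TPM in C3G null (scaled log2 fold change -1.15, adjusted p = 0.00254). Of the 5 mesoderm genes listed only 2 were tested, and the other, Eomes, did not pass (0.02, limma adjusted p = 0.904).

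Fgf5 (chr5:98254184-98277030, plus strand), a marker of the primed epiblast, measured 2.64, 2.10 and 1.89 TPM in WT and 1.25 and 2.73 TPM in C3G null. The C3G null samples lay at both ends of the range as deposited (log2 fold change -0.14, limma adjusted p = 0.521). Scaled, they lay above WT by little, at 2.02 and 3.01 against 1.98, 1.72 and 1.71 (log2 fold change 0.31, SE 0.13, adjusted p = 0.118), and the difference passed without C3G null 1 (adjusted p = 0.0308). The other primed epiblast genes did not move as 1 group after scaling. Otx2 (log2 fold change 0.99, adjusted p = 0.00046) and Dnmt3b (0.44, adjusted p = 0.0151) were higher, Sall2 was lower (-0.64, adjusted p = 0.00217) and Pou3f1 did not pass (0.02). As deposited, neither Otx2 nor Dnmt3b was called (adjusted p = 0.217 and 0.416).

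Fgf13 (chrX:59062145-59568071, minus strand) encodes a member that is not secreted and is known as a partner of sodium channels and microtubules. It measured 1.05, 1.08 and 0.90 TPM in WT and 0.23 and 0.25 TPM in C3G null, and passed the filter only through WT 1 and WT 2. Scaled, the values were 0.787, 0.885 and 0.815 against 0.372 and 0.276 (log2 fold change -0.47, SE 0.085, limma adjusted p = 0.0103), and as deposited the log2 fold change was -0.70 (adjusted p = 0.000208). The call was lost under quantile normalization (adjusted p = 0.29) and without C3G null 2 (adjusted p = 0.0575). The isoforms of Fgf13 differ in their first exon. The transcript Fgf13-201 held 0.92, 0.73 and 0.44 TPM in WT and 0.13 and 0.20 TPM in C3G null, and 5 transcripts with starts farther upstream summed to 0.13 to 0.35 TPM and to 0.06 and 0.03 TPM.

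Fgfr1 (chr8:25513654-25575718, plus strand), the main FGF receptor of ES cells, measured 23.9, 19.3 and 20.9 TPM in WT and 8.48 and 9.40 TPM in C3G null. Scaled, the values were 17.9, 15.8 and 18.9 against 13.7 and 10.4, closer but still apart, and WT was 1.46 times C3G null. The log2 fold change was -0.52 (SE 0.13, limma adjusted p = 0.0292) scaled and -1.17 (adjusted p = 7.48e-05) as deposited. The scaled call was near the threshold. It was lost with the length and GC correction (log2 fold change -0.39, adjusted p = 0.0674), without a filter (adjusted p = 0.0756), and without C3G null 2 (0.111), WT 1 (0.0731) or WT 3 (0.0642). Summed over protein-coding transcripts alone, an alternative chosen after seeing the data, it was -0.45 (adjusted p = 0.0207). The scaled profiles nearest to that of Fgfr1 were those of Mfge8, Timp1 and Ndfip2 (root mean square difference 0.055, 0.067 and 0.077). An antisense gene within Fgfr1, Gm16159, reached 0.63 TPM at most.

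Fgfr2 (chr7:130162451-133123350, minus strand, a span that includes the far first exons of Fgfr2-217) measured 6.92, 6.75 and 5.85 TPM in WT and 3.24 and 5.43 TPM in C3G null. As deposited it was just under the threshold (log2 fold change -0.52, limma adjusted p = 0.0489). Scaled, the values were 5.18, 5.53 and 5.30 against 5.24 and 5.99, with overlap (log2 fold change 0.06, SE 0.074, adjusted p = 0.578). Scaled to protein-coding TPM the log2 fold change was -0.13 (adjusted p = 0.3), so no direction can be given for Fgfr2. The first exons of Fgfr2-217 lie within Ctbp2, and without that transcript, a choice made after seeing the data, the scaled log2 fold change was -0.014 (adjusted p = 0.913).

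**Figure D3:**
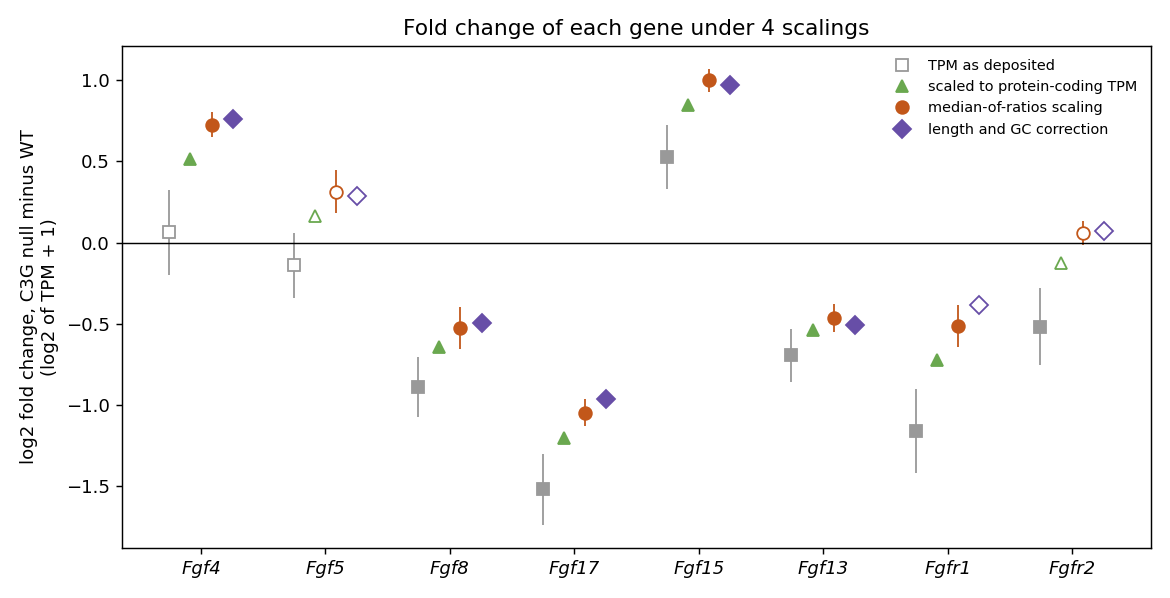
Log2 fold change of each gene (C3G null minus WT, on log2 of TPM + 1) under 4 scalings. Filled symbols passed the test (adjusted p under 0.05), open symbols did not, and vertical lines are 1 SE, drawn for the deposited and the median-of-ratios values. Fgf15 lies above 0 under all 4 and passed each time, Fgf8, Fgf13 and Fgf17 lie below 0 and passed each time, and Fgf4 moves from 0.06 to between 0.52 and 0.76.

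Ratios of TPM within a sample do not depend on the scaling. With 3 against 2 samples there are 10 ways to split them, and an exact two-sided permutation test cannot go below 0.2, so the ratios are a description. Fgf4 over Fgfr1 was 0.797, 0.952 and 0.782 in WT and 1.70 and 2.58 in C3G null. Summed over all transcripts, the ligand was thus below its receptor in each WT sample and above it in each C3G null sample. Coding transcripts held 64.1, 73.0 and 70.4% of Fgfr1 in WT. Against these alone Fgf4 was the higher in WT too, so the crossing holds for gene sums only. Fgfr2 over Fgfr1 was 0.290, 0.350 and 0.280 against 0.382 and 0.578. Fgf8 over Fgf17 overlapped, at 0.493, 0.329 and 0.309 against 0.562 and 0.460. How often the ratios of other gene pairs part the groups was not counted. Summed over the 18 secreted ligand genes and the 4 receptor genes, ligand over receptor was 1.08, 1.17 and 1.05 against 1.72 and 2.28, the C3G null samples again being the higher. Within the ligand sum, Fgf4 made up 55.3, 58.4 and 56.7% in WT and 69.8 and 69.9% in C3G null. Fgf15 made up 4.85, 5.03 and 5.04% against 10.1 and 9.85%. Fgf17 made up 16.0, 16.5 and 18.6% against 5.07 and 3.96%, and Fgf8 7.87, 5.41 and 5.74% against 2.85 and 1.82%. The share of Fgf5, between 6.04 and 7.88%, overlapped. The C3G null samples thus held more of their ligand RNA as Fgf4 and Fgf15 and less as the FGF8 subfamily. Shares of a sum are tied, so the lower Fgf17 share by itself raises those of the other ligands. The Fgf15 to Fgf4 ratio was nearly constant within each group, at 0.0861 to 0.0889 in WT and 0.141 and 0.145 in C3G null.

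**Figure D4:**
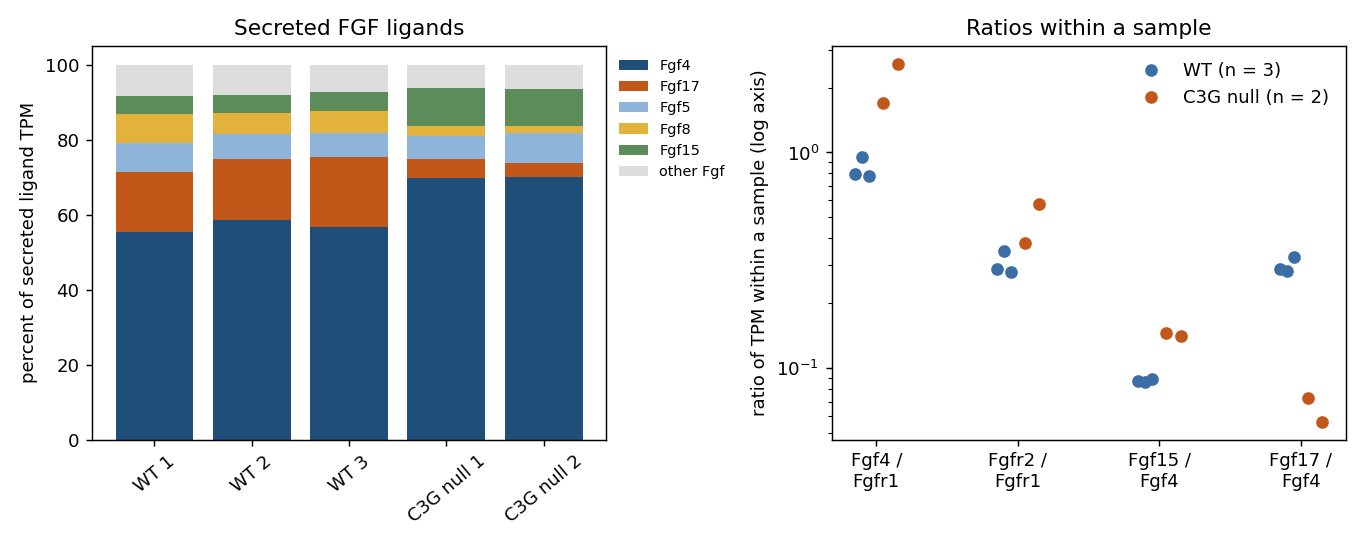
Left, the percent of the TPM of all secreted ligand genes held by each ligand, per sample. Right, ratios of TPM between pairs of genes within a sample (log axis), 3 WT and 2 C3G null samples. Fgf4 fills 55.3 to 58.4% of the WT bars and 69.8 and 69.9% of the C3G null bars, and the groups do not overlap in any of the 4 ratios drawn. Fgf8 over Fgf17, which is not drawn, overlapped.

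Isoform use was compared as the share of each transcript in its gene's TPM. Of the 72 transcripts, 50 were above 0 in some sample and 22 were at 0 in all, and 21 held a mean share of at least 10%. In the test of isoform use 23 transcripts of the 8 genes could be entered, and none was called (limma, smallest adjusted p = 0.464, 3 at an unadjusted p under 0.05), against 0.0352% of all 31206 tested. The C3G null shares lay above all WT shares for 1 of the 23, against 12.0% of all transcripts tested, and below for 5, against 12.2%. The shares of a transcript are estimates by RSEM whose own error is not in the table. In the test of transcript levels, 12 of the 72 were above the filter, of which 2 were higher after scaling, against 3.35% of all transcripts, and 2 were lower, against 5.07%. The higher were Fgf4-201 (log2 fold change 0.73, adjusted p = 0.0129) and Fgf15-201 (0.99, adjusted p = 0.00805). The lower were Fgf17-201 (-0.96, adjusted p = 0.0137) and Fgfr1-208 (-0.75, adjusted p = 0.0281). Fgfr1-208 passed the filter through WT samples alone, so its lower call carries no weight in this count. As deposited, none was higher, against 0.401%, and 6 were lower, against 22.9%. Among these 6, Fgf17-202, Fgfr1-206 and Fgfr1-208 passed the filter through WT samples alone and carry no weight in the count. No call on the transcripts of the 8 genes was left with the replicate number as a block, where no transcript of the whole table was called, nor without WT 2 or without C3G null 2.

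For the ligands, the shares of transcripts with the 33-nt stretch overlapped between the groups. Form b held 68.7, 79.1 and 78.5% of Fgf17 in WT and 72.4 and 80.3% in C3G null, with overlap. The shorter form, Fgf17-202, measured 1.72, 1.08 and 1.15 TPM against 0.29 and 0.27 TPM and did not pass after scaling (log2 fold change -0.58, limma adjusted p = 0.0625). Fgf8-201, Fgf8-203 and Fgf8-206 hold the 33-nt stretch, and Fgf8-201 also holds the 87-nt exon. Together they made up 76.8, 57.6 and 77.0% of Fgf8 TPM in WT and 66.1 and 54.0% in C3G null. Single Fgf8 transcripts were spread more widely. Fgf8-206, the transcript of the form b sequence above, held 33.6, 39.4 and 29.1% in WT and 18.6 and 0% in C3G null. These shares did not overlap (isoform use log2 ratio -1.30, SE 0.50, limma adjusted p = 0.564), but Fgf8 as a whole was below 1 TPM in the C3G null samples. Fgf5-201, with exon 2 (104 nt, which is not a whole number of codons), held 74.6, 80.0 and 77.8% in WT and 88.0 and 73.3% in C3G null. The rest was Fgf5-202, the form without exon 2, whose product is known as an antagonist of full-length FGF5.

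For Fgfr1, exon IIIc dominated in every sample. Among transcripts with an annotated reading frame that hold only 1 of these exons, IIIb held 2.74, 2.83 and 6.41% in WT and 3.65 and 0.940% in C3G null. Most of this IIIb signal was Fgfr1-209, annotated as a target of nonsense-mediated decay (0.30, 0.26 and 0.35 TPM in WT, 0.14 and 0.06 TPM in C3G null), and the coding IIIb transcripts were at 0 in both C3G null samples. The leading coding transcript, Fgfr1-202, held 37.7, 47.8 and 32.2% of the gene in WT and 30.5 and 49.2% in C3G null. The exon for the first Ig domain was kept in 95.6 to 97.8% over the 5 samples, and the 6 nt shown above were included in 33.7 to 41.4% in WT and 38.5 and 32.6% in C3G null. The percentages for the 6 nt are of the TPM of all transcripts that tell the forms apart, with Fgfr1-208 among those that include them. Only Fgfr1-208 parted the groups among the Fgfr1 transcripts named here. It carries both IIIb and IIIc and is also annotated as a target of nonsense-mediated decay, the pathway that degrades messages with an early stop. Its share was 11.9, 11.3 and 13.2% in WT and 6.60 and 7.77% in C3G null (isoform use log2 ratio -0.69, SE 0.19, limma adjusted p = 0.464). The 385-nt fragment Fgfr1-218 held from 4.15 to 28.7% in C3G null and from 8.87 to 24.0% in WT, so transcript shares of this gene vary within a group by as much as several of the differences between groups.

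For Fgfr2, IIIb and IIIc were nearly balanced in WT and IIIc led in C3G null. IIIb held 48.4, 52.2 and 48.4% in WT and 37.3 and 28.5% in C3G null. In TPM as deposited, IIIb transcripts summed to 1.35, 1.55 and 1.25 in WT and 0.57 and 0.74 in C3G null, and IIIc transcripts to 1.44, 1.42 and 1.33 in WT and 0.96 and 1.86 in C3G null. The groups did not overlap in this 1 of 10 splice choices compared in Fgf5, Fgf8, Fgf17, Fgfr1 and Fgfr2. Over all tested transcripts, the C3G null shares lay above all WT shares for 12.0% and below for 12.2%. A single such choice among 10 is therefore not unusual, and the IIIb share itself was not tested. The transcripts did not all follow the sum. Fgfr2-215, with IIIc, held 14.3, 17.3 and 14.02% in WT and 23.8 and 19.7% in C3G null (isoform use log2 ratio 0.62, SE 0.26, limma adjusted p = 0.598). Fgfr2-211, with IIIb, held 13.9, 15.4 and 9.57% against 9.26 and 4.24% (-0.83, adjusted p = 0.646). The minor IIIb transcript Fgfr2-208 held 2.17, 4.30 and 3.59% in WT and 0.617 and 9.39% in C3G null, so C3G null 2 was above every WT sample. The minor IIIc transcript Fgfr2-209 held 2.31, 1.33 and 0% in WT and was at 0 in C3G null. Retained-intron transcripts, which give no receptor, held 41.5, 38.7 and 36.6% of Fgfr2 in WT and 35.2 and 32.0% in C3G null, and coding transcripts 44.7, 56.1 and 53.2% against 63.6 and 59.5%. The 6 nt in the FRS2-binding segment were included in 62.6 to 78.1% in WT and 59.8 and 66.0% in C3G null, with overlap. These are percentages of the TPM of all transcripts that tell the forms apart. Fgfr2-222 and Fgfr2-225, with retained introns, and the decay target Fgfr2-226 count there as including the 6 nt.

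**Figure D5:**
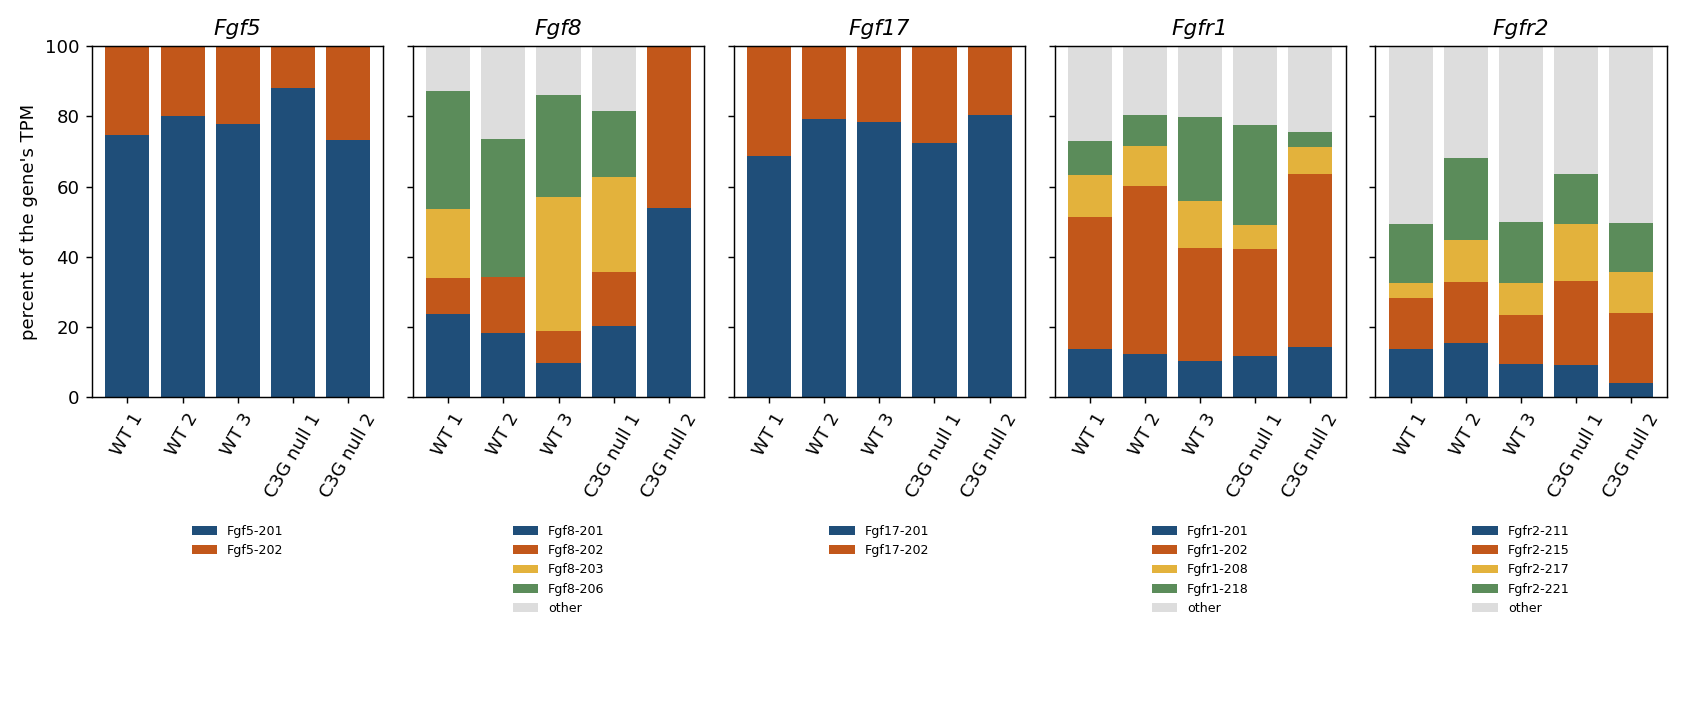
Share of each named transcript in its gene's TPM, in percent, in every sample, for Fgf5, Fgf8, Fgf17, Fgfr1 and Fgfr2. Grey holds all other transcripts of the gene. The C3G null share of Fgfr1-208 (6.60 and 7.77%) is below the WT shares (11.3 to 13.2%), and for Fgf5 and Fgf17 the groups overlap.

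The rest of the pathway was read from 4 lists with 63 genes, of which 54 passed the filter. After scaling 1 was higher and 22 were lower, against 14.1 and 16.6% of all genes, and 31 did not pass. Of the 54, 5 passed the filter through WT samples alone, and 3 of these were among the 22. As deposited none was higher, against 1.45% of all genes, and 48 were lower, against 56.8%. The median log2 fold change of the 54 was -0.23 scaled and -0.77 as deposited, beside 0.01 and -0.55 over all genes. Scaled log2 fold changes fell with transcript length over the 12518 tested genes (Spearman correlation -0.31, and -0.04 after a length and GC correction). The pathway genes were not matched to other genes for length.

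Among co-receptors and heparan sulfate enzymes, 17 of 21 were tested, with 1 higher, 9 lower and a median of -0.30. The cell-surface proteoglycans Gpc4 (log2 fold change -1.46, limma adjusted p = 0.000368) and Sdc1 (-0.82, adjusted p = 0.00171) fell, as did Gpc1 (-0.50). Sdc3 (-0.59) was also called lower. Gpc4 measured 14.2, 11.8 and 9.55 TPM in WT and 1.71 and 2.68 TPM in C3G null. Gpc3 was the higher gene (0.54, adjusted p = 0.00333), though not as deposited (-0.10). Of the enzymes that build or trim the chains, the sulfotransferases Ndst1 (-0.54), Ndst2 (-0.54) and Hs6st2 (-0.34), the polymerase Ext1 (-0.30) and the 6-O-sulfatase Sulf2 (-0.32) were lower. Sdc3, Ndst2 and Hs6st2 passed the filter through their WT samples alone, which favours a lower call.

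Of the adaptors and proximal signalling genes, 13 of 14 were tested and 3 were lower, with a median of -0.17. These were the docking protein Gab1 (log2 fold change -0.36, limma adjusted p = 0.0125) and the adaptors Shc1 (-0.42) and Shb (-0.75). The values of Frs2 (-0.11, adjusted p = 0.322), Grb2 (-0.25, adjusted p = 0.368), Sos1 (-0.18) and Ptpn11 (-0.24) did not pass.

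Of the inhibitors, 11 of 14 were tested and 4 were lower, with a median of -0.20. These were Spry2 (log2 fold change -0.69, limma adjusted p = 0.017), Spred1 (-0.81, adjusted p = 0.000507), Spred3 (-0.37) and the ERK phosphatase Dusp6 (-0.63, adjusted p = 0.0121). Dusp6 measured 35.2, 37.2 and 37.0 TPM in WT and 12.8 and 16.0 TPM in C3G null. Spry4 (-0.20, adjusted p = 0.0503) and Spry1 (0.08) did not pass.

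Of the genes that FGF-ERK signalling is known to induce, 13 of 14 were tested and 6 were lower, with a median of -0.22. Phlda1 (log2 fold change -1.50, limma adjusted p = 0.00067), the ERK-directed nuclear phosphatases Dusp5 (-0.998) and Dusp4 (-0.89), and the transcription factors Junb (-0.95), Myc (-0.48) and Egr1 (-0.35) fell. Phlda1 measured 7.53, 7.30 and 4.79 TPM in WT and 0.73 and 1.13 TPM in C3G null. The ETS factors Etv4 (-0.22, adjusted p = 0.0546), Etv5 (-0.01, adjusted p = 0.91) and Etv1 (0.09) did not pass. The list thus held genes that fell by more than 0.8 on the log2 scale beside others near 0.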

How the data were processed

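RNA of 3 WT and 2 C3G null samples was sequenced as paired-end reads. The deposited table gives TPM, estimated by the authors for 142647 Ensembl transcripts. The submitters' processing notes name bcl2fastq 2.20, FastQC 0.11.7, STAR 2.5.1b, RSEM 1.2.31 and GRCm38. The Ensembl release is not given in the sources used here. Values are rounded and include small RNAs, so depth and counting error are unknown.

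GENCODE M21 (GRCm38) named 141524 transcripts, which were summed by gene symbol, and 1123 were not matched. Genes and transcripts with at least 1 TPM in at least 2 samples were compared with limma 3.58.1 (R 4.3.3, trend) on log2(median-of-ratios scaled TPM + 1), two-sided, with Benjamini-Hochberg adjustment over all tested and a threshold of 0.05. Isoform use was tested on log2((transcript TPM + 0.1)/(TPM of the gene's other transcripts + 0.1)) for genes with a mean of at least 1 TPM and transcripts with a mean share of 5 to 95%. The fits were tested on simulated data. TPM are not counts, so no count model was used. With TPM as deposited the prior degrees of freedom were infinite, so those p-values use only the variance trend fitted over all genes. After scaling the prior degrees of freedom were 3.11.

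The 8 genes, the pathway and marker lists and the tests were chosen with earlier results of these data known. The splice choices and the ratios between genes were added after the data were seen. Named are the 8 genes, their transcripts with a mean share of at least 10%, listed genes past the threshold (and some named for contrast after their values were seen), Rapgef1, and the 3 genes of at least 5 TPM with the nearest scaled profile to Fgf4 and to Fgfr1. Of these, 1 gene and some of the splice-form sequences are not reported here. Neighbours are tested genes whose annotated start, taken as the lowest coordinate on either strand, lies within 1 Mb. No promoter or protein sequence was used. Alternatives were other scalings, pseudocounts of 0.1, 0.5 and 5, other filters, no trend, a length and GC correction, a replicate block and each sample left out in turn.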

Additional observations from a re-analysis of the deposited data

How the results depend on the processing

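The samples are few, reads per sample are unknown, and RSEM's error in splitting reads between transcripts is not in the table. Calls of Fgf15 and Fgf17 held under every alternative run on them, and that of Fgf4 under all but TPM as deposited. Fgf15, Fgf8, Fgf5 and Fgf13 could not be tested with a filter of 5 TPM, nor Fgf13 without WT 1, without WT 2 or with protein-coding transcripts only.

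With TPM as deposited, 181 genes were higher and 7109 lower (1760 and 2083 scaled), 1 of the 8 FGF genes was higher, 0 pathway genes were higher and 48 lower (1 and 22 scaled), 101 transcripts were higher and 5751 lower (844 and 1277 scaled), and 0 FGF transcripts were higher and 6 lower (2 and 2 scaled). The direction turned for Fgf5 (-0.14), Fgfr2 (-0.52), Gpc3 (-0.10), Fgf5-201 (-0.10) and Fgfr2-215 (-0.055). Scaled to protein-coding TPM, 707 genes were higher and 3732 lower, 35 pathway genes were lower, and Fgfr2 stood at -0.13. The split of higher against lower calls thus follows the scaling.

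Without a filter, 2 FGF genes were lower, 2 pathway genes higher, 266 transcripts higher and 468 lower, and 1 FGF transcript lower. At a filter of 5 TPM, 1145 genes were lower, and 1 FGF gene was higher and 2 were lower, because fewer were tested. A pseudocount of 0.5 TPM gave 74 calls of isoform use in place of 11, none in the FGF genes. Without Fgfr2-217, Fgfr2 was at -0.014.

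Replicate numbers 1 and 2 occur in both groups, but the samples share only a number. The difference between WT 1 and WT 2 had a correlation of -0.02 with that between the C3G null samples, over 12518 genes, which are not independent. With the replicate block 0 transcripts were called in either direction, 0 FGF transcripts in either direction and 0 in isoform use, and Fgfr1-218 moved from -0.32 to 0.056. In the gene fit the block left the 2 higher and 4 lower FGF genes. With the length and GC correction as well, 14 pathway genes were lower.

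With each sample left out in turn, 909 to 1579 genes were higher and 1385 to 1880 lower, 2 to 3 FGF genes were higher and 1 to 3 lower, 14 to 21 pathway genes were lower, 60 to 355 transcripts were higher and 175 to 679 lower, 0 to 2 FGF transcripts were higher and 0 to 1 lower, and 0 to 6 transcripts were called in isoform use. Fgfr2 ranged from -0.020 to 0.15 and Fgfr1-218 from -1.27 to 0.58. Where 1 C3G null sample is left, it is assumed to vary like the WT samples.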
